A study of Mus musculus with 12 samples.

Results

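Vasopressin and oxytocin are neuropeptides of the hypothalamus, and the data were examined for their genes, Avp and Oxt, and for the receptor genes Avpr1a, Avpr1b and Oxtr. The members were all probes of the normalized table that carried one of these 5 gene symbols, which gave 5 of 27308 gene symbols and 6 probes of 56605, because Oxt had a pair of probes. Of these, 5 probes were well above background on all 12 arrays and were tested among 35230 probes in all. The remaining one, for Avpr1b, was not well above background on any array.

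The samples were hypothalami of male C57BL/6 mice, labelled as 6-7 weeks old, the age at which training began. WT were wild-type littermates, KO were homozygous Asmt-knockout mice, and the exercise groups were wild-type mice (exercised WT) and knockout mice (KE) trained by swimming, with 3 mice per group. The knockout founders were made with Cas9, carried a 20 bp deletion and were backcrossed for 3 generations. Asmt encodes the last enzyme of melatonin synthesis, and the C57BL/6J strain is known to be deficient in it already. The comparisons asked whether the knockout (KO versus WT and KE versus exercised WT) or swimming (exercised WT versus WT and KE versus KO) went with a different transcript level, and whether swimming went with a different change in each genotype.

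Each of the 12 single-color arrays held 59305 spots, of which 36543 to 40276 were well above background and 0 were saturated. The arrays lay on 2 slides. Slide 1 held all WT mice with KO replicates 1 and 2, and slide 2 held KO replicate 3 with all exercised WT and KE mice, so swimming and slide were separated only through the KO mice. The 75th percentile of the processed signal before normalization was 811.8 to 935.5 on slide 1 and 1029 to 1164 on slide 2. The Asmt probe was well above background on 0 of 12 arrays, so the genotype labels could not be checked with it. All 8 markers of hypothalamic neurons were detected, that is, well above background in all mice of at least 1 group, whereas 2 of 6 markers of anterior pituitary were. Of these, Lhb and Tshb were well above background on 12 arrays, Cga on 5, Prl on 3, and Gh and Pou1f1 on 0.

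Vasopressin and oxytocin are made as precursors by magnocellular neurons of the paraventricular and supraoptic nuclei, cut from their neurophysin carriers in secretory granules, and released into the blood from the posterior pituitary. Vasopressin conserves water and constricts vessels, and it is also made by clock neurons of the suprachiasmatic nucleus. Oxytocin acts in birth, lactation and social behavior. Avpr1a, Avpr1b and Oxtr are receptors that signal through Gq and phospholipase C. In brain, Avpr1a and Oxtr are known from neurons of many regions, and Avpr1b is best known from hippocampal area CA2 and pituitary corticotrophs.

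The peptide genes come from an ancient gene duplication and lie tail to tail as neighbors, so it matters whether their probes could cross-hybridize. By the annotation of the array (build mm9), the Avp probe lay on chromosome 2 between 130406552 and 130406817. The second Oxt probe lay on the same chromosome between 130402038 and 130402358, and the first between 130402665 and 130402724. From the last base of the Oxt probes to the first of the Avp probe were 3827 bases. The Avp probe and the second Oxt probe hold 60 bases each but span 266 and 321 bases of the genome, so by this annotation they cross an intron and read spliced RNA. Both are shown in the sense of the transcript, since they carry the values of the neighboring genes.
Avp probe: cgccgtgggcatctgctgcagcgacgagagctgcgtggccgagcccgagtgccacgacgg
Oxt second probe: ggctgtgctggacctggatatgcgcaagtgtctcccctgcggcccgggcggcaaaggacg
The longest run of bases shared by these sequences was 5, and the best alignment without gaps matched 22 of 60 bases. Between the Avp probe and the first Oxt probe, the longest shared run was 6 bases. These values compare probe with probe only. No probe was compared with the transcript of the other gene, so cross-hybridization itself was not tested.

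The 250 bases before each annotated transcription start are shown because the upstream regions of these neighbors can be compared directly, and because Avp is known as a gene of clock neurons. The sequences are from RefSeq (GRCm38.p6), which listed promoters for 4 of the 5 genes. They are written in the sense of each gene, with Avp on the minus strand at chr2:130582589-130582838 and Oxt on the plus strand at chr2:130575919-130576168. Capitals mark matches to 3 motifs that were searched on both strands, and no match overlaps another. The first motif was CACGTG, the canonical E-box bound by clock proteins. The second was TGACCT, a half-site of nuclear receptors of the kind known to act on the Oxt promoter. The third was CATAAA, a variant of the TATA element that positions the start of transcription.
Avp upstream: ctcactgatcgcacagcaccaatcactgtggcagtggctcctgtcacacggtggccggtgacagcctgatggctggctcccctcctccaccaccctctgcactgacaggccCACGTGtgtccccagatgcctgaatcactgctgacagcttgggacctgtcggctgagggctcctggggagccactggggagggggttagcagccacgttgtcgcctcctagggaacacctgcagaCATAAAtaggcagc
Oxt upstream: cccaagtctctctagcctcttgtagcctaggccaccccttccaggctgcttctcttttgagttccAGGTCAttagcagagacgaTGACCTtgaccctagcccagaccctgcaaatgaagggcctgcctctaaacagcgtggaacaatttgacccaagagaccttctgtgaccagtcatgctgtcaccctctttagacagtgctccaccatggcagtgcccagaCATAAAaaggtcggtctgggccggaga
CACGTG was found once, in the Avp sequence, from -139 to -134 relative to the start. TGACCT was found in the Oxt sequence from -166 to -161 and, on the other strand, from -185 to -180. CATAAA was found in both, from -14 to -9 for Avp and from -27 to -22 for Oxt. Among 32851 promoter sequences of this length, 6.02% held the E-box, 14.0% held the half-site and 10.8% held the TATA-like element. These are matches of letters, and no binding was measured.

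For the peptide genes, the signal varied more between mice of a group than it did for most probes. On the normalized log2 scale, the within-group SD was 0.24 for Avp, 0.19 for Oxt and 0.23 for the second Oxt probe, and the median of the tested probes was 0.14. These SDs were larger than those of 76.7%, 66.8% and 75.4% of the tested probes. The receptors lay at the other end, with an SD of 0.10 for Avpr1a (larger than 33.3% of probes) and 0.07 for Oxtr (larger than 16.9%).

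Avp had normalized log2 signals of 15.20, 14.83 and 14.91 in WT mice. In KO mice they were 14.83, 15.29 and 14.80. The exercised WT values were 14.91, 14.40 and 14.34, and the KE values were 14.96, 14.67 and 14.78. Exercised WT replicates 2 and 3 had the lowest signals of the 12, but exercised WT replicate 1 lay within the WT range, and all groups overlapped. The means were 14.98 ± 0.19 for WT and 14.97 ± 0.27 for KO, and with swimming 14.55 ± 0.32 for exercised WT and 14.81 ± 0.14 for KE (SD, n = 3).

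Oxt had signals of 17.12, 16.94 and 17.09 in WT mice. The KO values were 16.65, 17.27 and 16.79. In exercised WT mice the signals were 16.76, 16.86 and 16.82, and in KE mice 16.83, 16.59 and 16.92. All exercised WT values lay below all WT values, while the KO group spanned nearly the whole range. The means were 17.05 ± 0.10 for WT and 16.90 ± 0.33 for KO, and with swimming 16.81 ± 0.05 for exercised WT and 16.78 ± 0.17 for KE (SD, n = 3).

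The second Oxt probe gave a similar picture, with 15.90, 15.55 and 15.66 in WT mice. The KO values were 15.22, 15.99 and 15.61. In exercised WT mice the signals were 15.50, 15.51 and 15.34, and in KE mice 15.60, 15.28 and 15.54. Again the exercised WT values were all below the WT values, and KO replicates 1 and 2 were the lowest and the highest of all 12 arrays. KO replicate 2 was the highest array for Avp and for both Oxt probes.

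Avpr1a, the main vasopressin receptor of the brain, had signals of 9.83, 10.12 and 10.13 in WT mice. In KO mice they were 10.18, 10.21 and 10.27, in exercised WT mice 10.26, 10.21 and 10.11, and in KE mice 10.02, 10.08 and 10.04. All KO values lay above all WT values, and all KE values lay below those of KO and of exercised WT. The gap between KO and WT was small beside the distance of WT replicate 1 from the other WT mice. The means were 10.03 ± 0.17 for WT and 10.22 ± 0.05 for KO, and with swimming 10.19 ± 0.08 for exercised WT and 10.04 ± 0.03 for KE (SD, n = 3).

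Oxtr, the oxytocin receptor, had the narrowest range of the detected members, 0.21 on the log2 scale over the 12 mice, against a median of 0.52 for the tested probes. The signals were 8.60, 8.80 and 8.76 in WT mice and 8.78, 8.64 and 8.76 in KO mice. They were 8.68, 8.70 and 8.77 in exercised WT mice and 8.65, 8.63 and 8.59 in KE mice. The means were 8.72 ± 0.10 for WT, 8.73 ± 0.07 for KO, 8.72 ± 0.05 for exercised WT and 8.62 ± 0.03 for KE (SD, n = 3). KE values were all below exercised WT values, and the other groups compared overlapped.

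Avpr1b stayed below the detection call in all mice, so it has no measured level or fold here. Its recorded values were 1.96 to 2.55 in the WT, exercised WT and KE mice. KO replicates 1 and 2 had 3.60 and 4.05, and KO replicate 3 had 2.07. These higher values did not pass the call of the scanner software either. Avpr2, the vasopressin receptor of the kidney, was likewise not well above background on any of the 12 arrays.

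**Figure D1:**
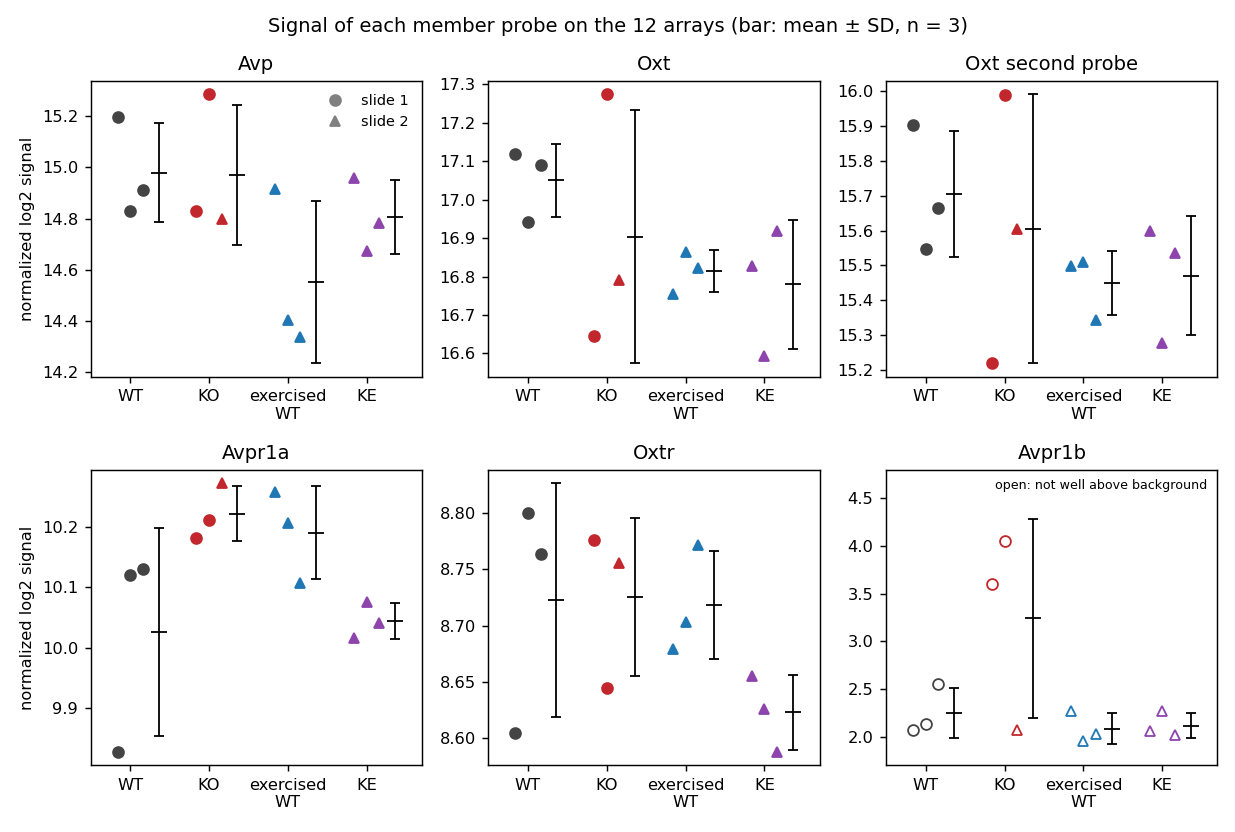
Normalized log2 signal (vertical axis, with its own range in each panel) of the 6 probes in the WT, KO, exercised WT and KE groups, 1 point per mouse in the order of replicates, with circles for slide 1, triangles for slide 2, open symbols for values not well above background, and bars for mean ± SD (n = 3). Exercised WT replicates 2 and 3 are lowest for Avp (14.40 and 14.34), KO replicate 2 is highest for Avp and both Oxt probes, and Oxtr spans 0.21.

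In KO versus WT mice, no member met the screening criterion of the methods, that is, at least 2-fold and an unadjusted p no higher than 0.05, which 0.224% of all tested probes met. The count with an adjusted p under 0.05 was also 0 (limma, Benjamini-Hochberg), as it was over all probes (0.0%). Avp differed by -0.01 on the log2 scale (95% interval -0.41 to 0.40). Oxt differed by -0.15 (-0.47 to 0.18) and the second Oxt probe by -0.10 (-0.49 to 0.29), so that peptide transcripts were not distinguishable between the genotypes at rest. A slide term, which adds the slide to the fit as a block, gave 0.08, -0.09 and -0.10 for these probes. This term takes the slide difference from KO replicate 3 against KO replicates 1 and 2. With it, KO versus WT rests on KO replicates 1 and 2, and KE versus KO on KO replicate 3 alone. Values for exercised WT versus WT with this term also depend on KO replicate 3. Avpr1a had a log2 difference of 0.20 (0.01 to 0.38), with an unadjusted p of 0.0389 and an adjusted p of 0.849 in limma. It was the 1 member of 5 probes with an unadjusted p under 0.05, where 5.48% of all probes had one, and the 1 member whose groups did not overlap, with all KO above all WT values as in 3.58% of probes. Without WT replicate 1 the difference for Avpr1a was 0.10, and with a slide term it was 0.17 (-0.04 to 0.38). Oxtr differed by 0.00 (-0.14 to 0.15).

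In exercised WT versus WT mice, the count of members at the screening criterion was 0, against 2.19% of all probes, and the count with an adjusted p under 0.05 was 0, against 0.0%. Avp had the largest difference of any member in any comparison of groups, -0.43 (-0.83 to -0.02), or 0.743-fold, with an unadjusted p of 0.0399 and an adjusted p of 0.174 in limma. It was 1 of 5 probes with an unadjusted p under 0.05, where 26.0% of all probes had one. With a slide term 6.18% of all probes and 0 of the 5 had an unadjusted p under 0.05. The Avp difference was -0.17 once a slide term was added (-0.91 to 0.57). Leaving out exercised WT replicate 1 gave -0.61 and leaving out WT replicate 1 gave -0.32. Oxt differed by -0.24 (-0.56 to 0.09) and the second Oxt probe by -0.25 (-0.65 to 0.14). Both Oxt probes had all exercised WT values below all WT values, which 22.2% of probes had in this comparison. With a slide term the first Oxt probe differed by -0.07 and the second by -0.26. Avpr1a differed by 0.16 (-0.02 to 0.35), or 0.06 without WT replicate 1, and Oxtr by 0.00 (-0.15 to 0.14).

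Sums of markers of neighboring tissue also differed between these groups, and some of them split by slide. The summed normalized signal of all 6 markers of the suprachiasmatic nucleus, a site of Avp expression, was 14367 to 15321 for WT and 13241 to 16340 for KO mice, against 13124 to 13393 for exercised WT and 12802 to 13444 for KE mice. The sum of all 5 thalamus markers was 3597 to 3809 for WT and 3506 to 4374 for KO mice, against 4090 to 4846 for exercised WT and 3930 to 4872 for KE mice. For all 4 endothelial markers the sum was 13027 to 13720 in WT, 11788 to 13139 in KO, 11248 to 11784 in exercised WT and 10361 to 11293 in KE mice. For all 4 microglial markers it was 7781 to 8209, 7457 to 7788, 7224 to 7749 and 7104 to 7620 in the same order of groups. The 2 detected pituitary markers summed to 173.7 to 178.5 in WT, 187.9 to 228.2 in KO, 209.7 to 234.8 in exercised WT and 191.3 to 219.2 in KE mice. KO replicate 3, the KO mouse on slide 2, had 13241 for suprachiasmatic nucleus, 4374 for thalamus and 11788 for endothelium. All arrays on slide 2 lay below all arrays on the other slide for suprachiasmatic nucleus and endothelium, and above them for thalamus. Microglial and pituitary sums overlapped between the slides. Whether swimming had a part in the sums that split by slide was not tested. Sums of hypothalamic neuron, pituicyte, cortex and hippocampus, astrocyte and oligodendrocyte markers overlapped between WT and exercised WT mice. They also overlapped between KO and KE mice. For hypothalamic neurons the sum was 131556 to 163132 in WT and 131916 to 182846 in exercised WT mice. Exercised WT replicate 3, the lowest mouse for Avp, had a sum of 18076 over the 6 striatal markers, and the other 11 mice had no more than 12466. Over all arrays, the rank correlation of the marker sums with Avp ran from -0.83 for thalamus to 0.53 for pituicytes. It was -0.64 for the pituitary sum, 0.50 for endothelium and 0.30 for suprachiasmatic nucleus. The thalamus, endothelium and suprachiasmatic sums are those that split by slide, so these values also carry the slide. The part of tissue composition in the Avp and Oxt values was not tested. In bulk tissue, fewer cells of a type and less RNA per cell cannot be told apart.

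In KE versus KO mice, 0 members met the screening criterion (1.21% of all probes did) and 0 had an adjusted p under 0.05 (0.0199% did). An unadjusted p under 0.05 was found for 0 of the 5 probes in limma, against 21.1% of all probes. Avp differed by -0.16 (-0.57 to 0.24), and by -0.01 without KO replicate 2. Oxt differed by -0.12 (-0.45 to 0.20) and the second Oxt probe by -0.13 (-0.53 to 0.26), and without KO replicate 2 these were 0.06 and 0.06. A slide term, which leaves KO replicate 3 as the only KO mouse compared, gave 0.01 for Avp, -0.01 for Oxt and -0.14 for the second Oxt probe. Avpr1a differed by -0.18 (-0.36 to 0.01), with an unadjusted p of 0.0561 and an adjusted p of 0.247 in limma. All KE values of Avpr1a lay below all KO values, which 15.4% of probes showed. A slide term gave -0.23 for Avpr1a (-0.49 to 0.03). Oxtr differed by -0.10 (-0.25 to 0.04).

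KE versus exercised WT was the comparison of genotypes that lay wholly on slide 2. Again 0 members met the screening criterion (0.253% of all probes did) and 0 had an adjusted p under 0.05 (0.0%). At an unadjusted p under 0.05 in limma, the count was 0 of 5, against 6.66% of all probes. Avp differed by 0.26 (-0.15 to 0.66), Oxt by -0.03 (-0.36 to 0.29) and the second Oxt probe by 0.02 (-0.37 to 0.41). Avpr1a differed by -0.15 (-0.33 to 0.04) and Oxtr by -0.10 (-0.24 to 0.05). For both receptors all KE values lay below all exercised WT values, as they did for 11.2% of probes.

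The change with swimming was then compared between genotypes. The interaction, (KE - KO) - (exercised WT - WT), was -0.34 for Avpr1a (-0.60 to -0.08), whose mean was higher in exercised WT than in WT mice and lower in KE than in KO mice. Its unadjusted p was 0.0149 and its adjusted p 0.564 in limma, and 7.75% of all probes had an unadjusted p under 0.05. With a slide term the interaction was -0.32 (-0.60 to -0.04), with an unadjusted p of 0.0302 and an adjusted p of 0.421 in limma. In that fit 10.8% of all probes had an unadjusted p under 0.05. Without WT replicate 1 the Avpr1a interaction was -0.24. With all arrays and no slide term, the interaction was 0.26 for Avp (-0.31 to 0.84) and 0.11 for Oxt (-0.35 to 0.58). For the second Oxt probe it was 0.12 (-0.44 to 0.67) and for Oxtr -0.10 (-0.30 to 0.11). No member met the screening criterion (0.593% of probes did) or had an adjusted p under 0.05 (0.0% did).

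Over the 5 tested probes and the 4 comparisons of groups, the 95% intervals reached from 0.561-fold to 1.58-fold, so that a 2-fold change in either direction lay outside each of them. With a slide term they reached from 0.497-fold to 1.59-fold, and the lower bound, of the second Oxt probe in exercised WT versus WT, then took in a 2-fold difference. The unpaired test that the methods name also gave 0 members at the screening criterion and 0 after Benjamini-Hochberg adjustment in each of the 4 comparisons, and unadjusted it put 0, 1, 1 and 2 of the 5 probes under 0.05 in the order of the text, against 1237, 9229, 4499 and 3778 of all 35230 probes. Intervals and p-values rest on the spread between 3 mice per group.

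**Figure D2:**
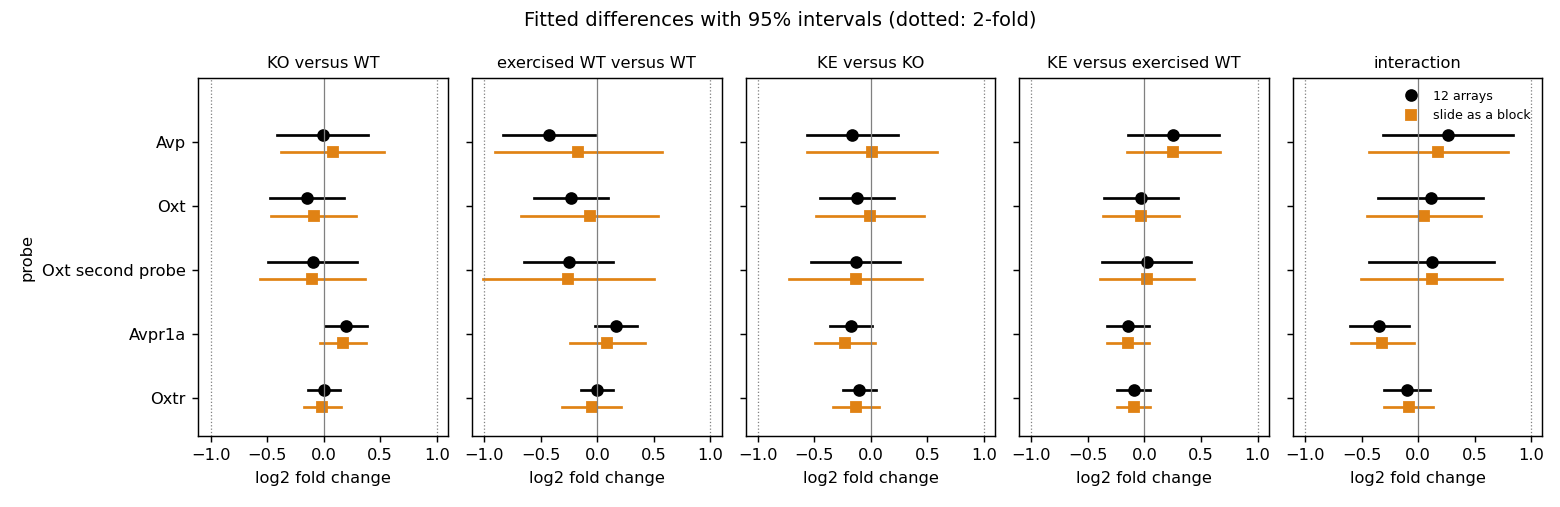
Fitted log2 fold change (horizontal axis) with its 95% interval for the 5 tested probes in the 4 comparisons of groups and the interaction, from the model of 12 arrays (black circles) and with a slide term (orange squares); dotted lines mark a 2-fold change. The Avp difference in exercised WT versus WT is -0.43 in the first and -0.17 in the second, and the Avpr1a interaction is -0.34 and -0.32.

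As the genes for both peptides are neighbors, their signals were set against each other over the 12 mice, as part of 10 pairs of member probes. The Oxt probes followed each other, with Pearson's r = 0.91 (permutation p = 9e-05, adjusted 0.0009) and Spearman's rho = 0.83 (permutation p = 0.00141, adjusted 0.0141), and r = 0.79 without KO replicate 2 and WT replicate 1. Avp and the first Oxt probe had r = 0.59 (permutation p = 0.0452, adjusted 0.151) and rho = 0.47 (permutation p = 0.129, adjusted 0.431). Avp and the second Oxt probe had r = 0.73 (permutation p = 0.00687, adjusted 0.0343) and rho = 0.64 (permutation p = 0.0306, adjusted 0.153). Without KO replicate 2 and exercised WT replicate 3, the arrays farthest from the Avp median, these were 0.45 and 0.57 (permutation p = 0.191 and 0.0804, n = 10), so that r stayed above 0 but its p was no longer under 0.05. After group means were taken out, r over the 12 arrays was 0.54 and 0.71. Within the 7 arrays of slide 2, r of Avp was -0.10 with the first Oxt probe (exact permutation p = 0.847) and 0.54 with the second (exact permutation p = 0.188). Between the Oxt probes it was 0.63 there (exact permutation p = 0.132). Slide 1 held 5 arrays, under the minimum of 6 kept here for a correlation, and KO replicate 2 and WT replicate 1 were its highest arrays for all 3 probes. In none of the other 7 pairs was an adjusted p under 0.05, and the smallest was 0.226, for Avpr1a with Oxtr (r = 0.50, permutation).

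**Figure D3:**
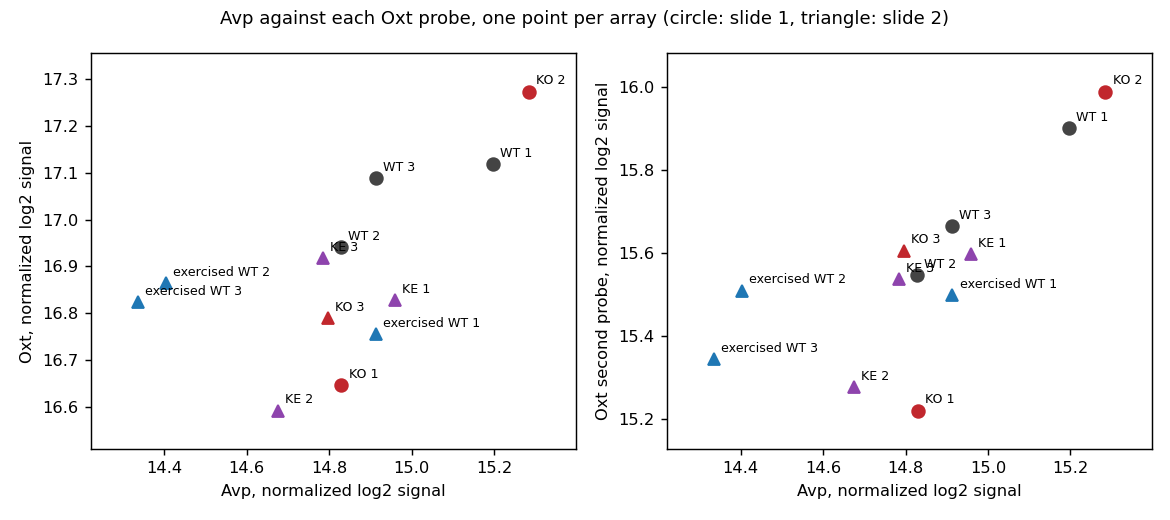
Normalized log2 signal of Avp (horizontal axis) against that of each Oxt probe (vertical axes), 1 labelled point per mouse, with color for the group, circles for slide 1 and triangles for slide 2. KO replicate 2 and WT replicate 1 lie at the upper right of both panels, and the arrays of slide 2 show r = -0.10 with the first Oxt probe and 0.54 with the second.

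Genes with the pattern most like that of each peptide were taken from 18266 gene symbols by Pearson's r over the 12 arrays, as a description. For Avp they were Capns1, a calpain subunit (r = 0.95), Stk32a, a kinase (0.89), Ucp2, a mitochondrial carrier (0.89), Caprin2, an RNA-binding protein known to bind Avp mRNA (0.89), and Plagl1, an imprinted zinc finger factor (0.88). After slide means were taken out, these were 0.82 to 0.92. Oxt came at rank 1416. Highest over lowest array was 1.17-fold for Capns1 and 1.51-fold for Stk32a, against 1.93-fold for Avp itself.

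For Oxt the 5 genes were Ccl19, a chemokine (r = 0.91), Igfbp2, which binds insulin-like growth factors (0.91), Slc6a20a, an amino acid transporter (0.88), Slc13a4, a sulfate transporter (0.88), and Aldh1a2, which makes retinoic acid (0.88). After slide means they ranged from 0.83 to 0.90. Igfbp2, Slc6a20a, Slc13a4 and Aldh1a2 are known from the meninges. KO replicate 2 was the highest array and KO replicate 1 lay below the mean of the 12 for all 5 genes, as for Oxt. Since the genes were chosen for the highest r with Oxt, such likeness follows from the choice. How high r would run by chance among so many gene symbols was not tested. The summed signal of 5 choroid plexus markers was 6827 in KO replicate 2 and 4577 and 4276 in the other KO mice. It was 4306 to 5637 in WT, 4959 to 6459 in exercised WT and 4176 to 4492 in KE mice, and WT replicate 1, the second highest array for Oxt, had 4438. Highest over lowest array was 1.48-fold for Igfbp2 and 2.62-fold for Aldh1a2. The part of meninges and choroid plexus in the Oxt values was not tested.

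**Figure D4:**
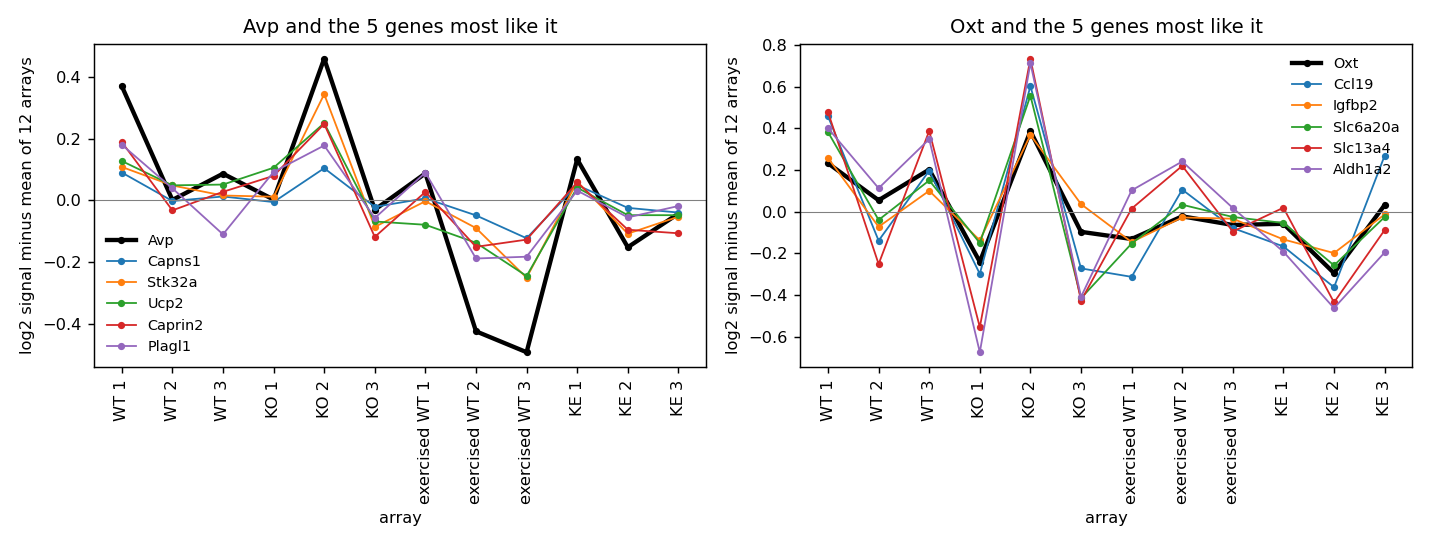
Log2 signal minus its mean over the 12 arrays (vertical axis) for each mouse (horizontal axis), for Avp and Oxt (thick black lines) and the 5 genes most like each (colored lines, r = 0.88 to 0.95 for Avp and 0.88 to 0.91 for Oxt). All lines beside Oxt are below 0 in KO replicate 1 and highest in KO replicate 2, and all lines beside Avp are below 0 in exercised WT replicates 2 and 3.

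Other genes of the pathway were counted in 5 lists that held 51 genes, of which 49 were tested with 1 probe each; Trpv1 and Avpr2 were not. With limma, 0 of the 49 had an adjusted p under 0.05 in any comparison of groups. At an unadjusted p under 0.05, 1 was higher and 0 lower in KO than in WT mice, 5 were higher and 6 lower in exercised WT than in WT mice, 3 were higher and 2 lower in KE than in KO mice, and 2 were higher and 1 lower in KE than in exercised WT mice. Over all tested probes, the shares higher and lower at this p were 2.39% and 3.09% in KO versus WT, 11.6% and 14.3% in exercised WT versus WT, 8.04% and 13.0% in KE versus KO, and 2.19% and 4.47% in KE versus exercised WT.

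The first list held 8 genes of magnocellular development and Avp transcription. Sim1, a factor needed for the paraventricular and supraoptic nuclei, was the 1 gene at the screening criterion (exercised WT versus WT), with a log2 difference of 2.01 (SE 0.70) and an adjusted p of 0.123 in limma. Its signal was 4.10 to 5.08 in WT mice, where 2 of 3 arrays were well above background, and 6.21 to 6.62 in exercised WT mice. Within the KO group, however, it ran from 4.10 to 7.23, the highest being the mouse on slide 2, and with a slide term the difference between exercised WT and WT was -1.10. Its direction in these data therefore depended on the slide term. Otp, a homeobox factor of the same neurons, had a log2 difference of -0.29 (SE 0.13) in exercised WT versus WT, with an unadjusted p of 0.0433. The smallest p of this list belonged to Pou3f2 in KO versus WT (-0.11), Rfx4 in KE versus KO (-0.20) and Arnt2 in KE versus exercised WT (-0.10), with adjusted p-values of 0.849, 0.237 and 0.820 in limma. The list's medians were 0.00, -0.12, -0.10 and 0.02 in KO versus WT, exercised WT versus WT, KE versus KO and KE versus exercised WT, beside -0.01, -0.04, -0.04 and -0.01 over all tested probes.

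Of 11 genes of prohormone processing and granules, 3 had an unadjusted p under 0.05 in exercised WT versus WT and 2 in KE versus KO. The shares over all tested probes were 26.0% and 21.1%, so the list did not stand out. Pam, the enzyme that amidates both peptides, had signals of 10.78 to 10.95 in WT and 10.42 to 10.59 in exercised WT mice, a log2 difference of -0.34 (SE 0.12) with an adjusted p of 0.123 in limma. With a slide term it was 0.04, and of its 5 tested probes 4 were below 0 and 1 above, down to -0.34 for the one named. Vgf, a granule peptide precursor induced by neuronal activity, had signals of 14.39 to 14.87 in KO and 14.96 to 15.09 in KE mice. Its log2 difference was 0.48 (SE 0.13) with an adjusted p of 0.147 in limma, 0.17 with a slide term, and 0.19 by its other probe. Scg5, a chaperone of prohormone convertase, differed by -0.11 in KE versus exercised WT, and Cpe, which trims prohormone fragments, by 0.05 in KO versus WT. The list's medians lay between -0.07 and 0.00.

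Among 11 peptides and enzymes that occur with vasopressin or oxytocin in neurons, Pdyn, the dynorphin precursor stored with vasopressin, had signals of 13.67 to 13.98 in WT and 13.32 to 13.64 in exercised WT mice. The log2 difference was -0.33 (SE 0.13), with an adjusted p of 0.151 in limma, and -0.05 with a slide term. In KE versus KO mice Pdyn differed by -0.28, and by -0.10 with a slide term. Avp and Pdyn thus shared a difference below 0 in exercised WT versus WT that was smaller with the slide term. Nos1, which makes nitric oxide, differed by 0.45 between KE and exercised WT mice, and by 0.06 by its other probe. Th, the first enzyme of catecholamine synthesis, differed by -0.28 in KO versus WT, with an adjusted p of 0.849 in limma. The medians of the list were 0.06, -0.09, -0.08 and 0.00 in the same order of comparisons.

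Among 9 genes of release, breakdown and osmosensing, Cd38, an enzyme needed for oxytocin release, differed by -0.22 (SE 0.09) in exercised WT versus WT and by -0.25 (SE 0.09) in KE versus KO, with adjusted p-values of 0.177 and 0.185 in limma. With a slide term the former was 0.03. Nalcn, a sodium leak channel, differed by 0.33 (SE 0.09) in KE versus KO with an adjusted p of 0.151 in limma, and of its 3 tested probes 2 were above 0 and 1 below. With a slide term Nalcn differed by 0.19 there. In KO versus WT it differed by -0.15, and Trpv2, a cation channel, differed by 0.10 in KE versus exercised WT. The medians of the list ranged from -0.03 to 0.04.

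Of 12 genes of receptor signalling, 11 were tested. At an unadjusted p under 0.05, 3 of these were higher and 1 lower in exercised WT than in WT mice, beside 11.6% and 14.3% of all tested probes. With a slide term 0 had such a p and 5 changed sign. Rgs4, which shortens Gq signals, had signals of 11.64 to 11.78 in WT and 12.02 to 12.15 in exercised WT mice. Its difference was 0.38 (SE 0.12), with an adjusted p of 0.102 in limma, and 0.03 with a slide term. Plcb4, a phospholipase C, differed by 0.24 in KO versus WT and by 0.23 in KE versus KO. With a slide term these were 0.14 and 0.03. Of its 8 tested probes, however, 6 and 7 were below 0 in these comparisons, so the direction of Plcb4 depended on the probe. Plcb3, another phospholipase C, differed by -0.23 in exercised WT versus WT and by 0.19 in KE versus exercised WT. Gnaq, the Gq subunit itself, differed by 0.33 in exercised WT versus WT. The list's medians were 0.02, 0.14, 0.04 and 0.00 in the same order.

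**Figure D5:**
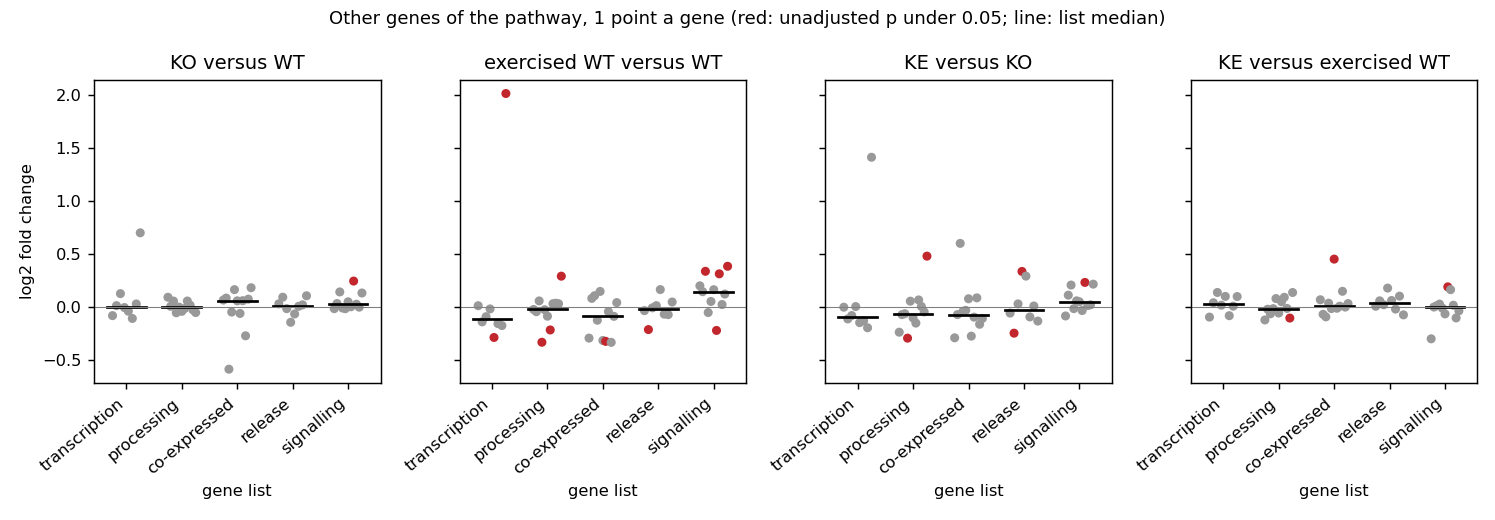
Log2 fold change (vertical axis) of the tested genes of the 5 lists in the 4 comparisons of groups, 1 point per gene, red for an unadjusted p under 0.05, with a line at each list's median. Most points lie near 0, and Sim1 stands alone at 2.01 in exercised WT versus WT, a value that is -1.10 with a slide term.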

How the data were processed

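Hypothalamus RNA of 12 mice was hybridized to single-color Agilent SurePrint G3 arrays. The authors deposited scanner output, in which values are the spot intensity processed by Feature Extraction 10.7.1.1, and a table of log2 values, which they had quantile-normalized over all arrays in GeneSpring. The intensity in the authors' table lay within 0.01 (log2) of the scanner output for all 56605 probes. Flags and the lists of the authors' own comparisons, with fold changes, p-values and values per sample, were not used (84 columns of per-sample values).

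A probe was tested if every array of some group called it well above background. The 4 group means were fitted to the deposited log2 values with limma 3.58.1 (R 4.3.3), with Benjamini-Hochberg adjustment over 35230 probes. The screening criterion (fold at least 2, unadjusted p at most 0.05) was that of the methods, applied to limma's p. The fit was tested on simulated data. Permutation tests were two-sided with 100000 draws, or exact for 7 arrays. No label says whether RNA was pooled, so p-values measure the spread between these samples, and the number of arrays limits precision.

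The members and gene lists were chosen with earlier results of these data known. Text names the members, the 5 genes most correlated with Avp and with Oxt, and from each list any gene at the criterion or else the smallest p per comparison, each by its brightest tested probe; Otp, Gnaq and the repeat values of Cd38 and Plcb3 were added after their values were seen. Marker lists for hypothalamic neurons, suprachiasmatic nucleus, anterior pituitary, pituicytes, striatum, thalamus, and cortex and hippocampus were summed on the linear scale. Lists for choroid plexus, astrocytes, oligodendrocytes, microglia and endothelium were summed likewise. Alternatives were the scanner signal normalized here, probe means per gene, another scaling, background correction, filters, the methods' t-test, limma on the groups compared alone, slide or replicate blocks, fits within a slide, and leaving out each array. Tables used Python 3.11.15 with pandas 2.3.3 and scipy 1.17.1.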

Additional observations from a re-analysis of the deposited data

How the results depend on the processing

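No member had an adjusted p under 0.05 in limma under any of 24 alternatives (smallest 0.0967), and 521 of 550 alternative values kept their direction. The other 29, of which 19 came from leaving out an array, belonged to 11 results whose main log2 difference was at most 0.16. Many of the 550 values could not change direction. The filters, the t-test, limma on the groups compared alone, the replicate block and leaving out an array of another group keep the log2 difference as it was. In KO versus WT, the slide term, the fit within slide 1 and the fit without KO replicate 3 give the same difference. The 521 are therefore not independent checks. The count of members at the screening criterion was 0 throughout, except that without the detection filter it was 1 in KE versus KO, for Avpr1b, which was not well above background on any array. Over all probes, the methods' t-test gave 1635 with an adjusted p under 0.05 in exercised WT versus WT, where limma gave 0, and 0 of them were members. Limma on these groups alone gave 2958 there. Without KO replicate 3, the KO mouse on slide 2, it gave 6353 there and 8577 in KE versus KO, where 7 had one with all arrays. In each of these fits 0 members were among them. In KO versus WT, Avp was 0.021 with 75th percentile scaling, 0.078 with a slide term and 0.078 within slide 1, and Oxtr was -0.0054 with percentile scaling, -0.034 with normexp background correction, -0.012 with a slide term and -0.012 within slide 1. In KE versus KO, Avp was 0.0096 with a slide term and 0.0096 within slide 2. In KE versus exercised WT, Oxt was 0.099 with percentile scaling. The cause was not tested. The comparisons within a slide were chosen after seeing the data. Leaving out each array gave ranges of -0.17 to 0.10 for Avp, -0.29 to 0.093 for the second Oxt probe and -0.056 to 0.043 for Oxtr in KO versus WT. In exercised WT versus WT, Oxtr ranged from -0.064 to 0.034. In KE versus KO, Oxt ranged from -0.25 to 0.062 and the second Oxt probe from -0.33 to 0.058. In KE versus exercised WT these were -0.10 to 0.059 and -0.044 to 0.12, and in the interaction -0.016 to 0.30 and -0.073 to 0.31. Replicate numbers of the sample titles showed no pairing. Over 18 pairs of samples with the same number the correlation of deviations ran from -0.19 to 0.24 with a median of 0.00, and 4 were over 0.1. Pairs with different numbers ran from -0.26 to 0.24 with a median of -0.03. The sample descriptions number some mice otherwise, and pairing by those numbers was not examined. With the replicate number as a block, the count of members with an adjusted p under 0.05 was 0 in each comparison, and Avp in exercised WT versus WT was -0.43 (adjusted p = 0.169, limma).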
